A study of Mus musculus with 8 samples.

Results

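The genes described here belong to the major histocompatibility complex (MHC, called H2 in mice) and to the machinery that loads its molecules with peptides. They were taken as every non-control probe of the array whose gene name started with H2- or was B2m, Tap1, Tap2, Tapbp, Psmb8, Psmb9, Psmb10, Nlrc5, Ciita, Cd74 or Erap1, which gave 53 of the 37074 gene names on the array and 90 of its 56605 probes. Of these, 49 probes of 31 genes were class I, 17 probes of 10 genes were class II, 22 probes of 11 genes were processing genes, and 2 probes of H2-Ke6, a metabolic enzyme gene that only shares the region, were neither.

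The study compared the whole cerebral cortex and striatum of male BTBRTF/ArtRbrc mice (BTBR/R), an inbred strain used in autism research, with those of male C57BL/6J mice (B6), with 4 mice in each strain, 1 array per mouse and no treatment or transgene. The B6 mice were 4 months old, as were BTBR/R replicates 2 to 4, while BTBR/R replicate 1 was 6 months old. Total RNA was labelled with a single dye and hybridised to an Agilent 60-base oligonucleotide array. Cortex and striatum were dissected together, so that cell types cannot be separated, and in such bulk tissue fewer cells of a type and less RNA per cell cannot be told apart. Probes for neuron markers (16 of 17), cortical markers (8 of 8) and markers of striatal projection neurons (12 of 12) were detected on all 8 arrays.

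Class I molecules sit on the surface of nearly every nucleated cell with beta-2-microglobulin (B2m) as their light chain and show peptides from inside the cell to CD8 T cells. The peptides are cut by the proteasome, whose immune form carries Psmb8, Psmb9 and Psmb10, are pumped into the endoplasmic reticulum by Tap1 and Tap2, are trimmed by Erap1 and are loaded with the help of tapasin (Tapbp). Class II molecules are made mainly by microglia and other antigen-presenting cells, travel with the invariant chain Cd74, and receive peptides from endocytosed proteins through H2-DM, which H2-O restrains. NLRC5 and CIITA are the main transcriptional activators of class I and class II genes, and interferon gamma raises both. In the brain the levels are low at rest, and class I molecules of neurons have been tied to synapse pruning.

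Values are scaled signals, that is, the log2 signal of a probe minus the 75th percentile of log2 signals on the same array, so that 0 marks that percentile. A probe was detected on an array where the scanner software placed it well above background. Strains were compared with limma (Benjamini-Hochberg adjustment over all 56605 probes), a change is BTBR/R minus B6 on the log2 scale with its standard error (SE), a probe passed the test at an adjusted p below 0.05, and it was called where it also differed at least 2-fold. Between 64.5 and 66.8% of probes were detected in B6 samples and between 53.5 and 57.2% in BTBR/R samples, and the lowest detected signal was 14.5 to 17.8 against 36.1 to 47.1. All arrays lay on 1 slide, where each strain had a column to itself, and an effect of the column cannot be told apart from one of strain. The comparison therefore rests on the 28547 probes detected on all 8 arrays, of which 38 were members. BTBR/R replicate 3 stood apart from the other BTBR/R mice for many of these members, as described below, and results that rest on it are given with and without it. That mouse was singled out for its values in these same probes. Adjusted p values and counts without it therefore describe the data and are no test of the strains.

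The probes on which the largest strain differences and the closest look-alikes rest are shown first, since class I genes are near copies of each other and a probe may bind more than its own transcript. Positions are in mouse build mm9 (NCBI37), as the scanner files give them. The H2-T22 probe lay on the minus strand at chr17:36175670-36175937, a span of 268 bases for a 60-base probe, so that it crosses an exon junction, and the probes of H2-T9 (chr17:36177171-36177230), H2-T10 (chr17:36255918-36255977) and H2-T24 (A_55_P2003996, chr17:36142640-36142699) were on the same strand. One probe is shown for each T region gene that was lower in BTBR/R past the test over all 8 mice. Of these genes only H2-T22 was detected on every BTBR/R array. Capitals mark the longest run that the H2-T9 and H2-T10 probes shared, 12 bases.
H2-T22: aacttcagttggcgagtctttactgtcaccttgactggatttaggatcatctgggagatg
H2-T9: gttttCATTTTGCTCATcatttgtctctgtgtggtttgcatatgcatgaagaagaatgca
H2-T10: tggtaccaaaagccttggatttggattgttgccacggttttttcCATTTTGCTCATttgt
H2-T24: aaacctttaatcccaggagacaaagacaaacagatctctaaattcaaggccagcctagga

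The H2-Bl probe A_55_P2483641 (chr17:36217134-36217193, minus strand), which was much brighter in BTBR/R, matched the probe A_51_P230269 of H2-Q10 (chr17:35611365-35611424, plus strand) at 49 of 58 aligned bases, and capitals mark the 9 that differed, with the overhang in lower case.
H2-Bl: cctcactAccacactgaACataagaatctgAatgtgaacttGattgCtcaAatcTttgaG
H2-Q10: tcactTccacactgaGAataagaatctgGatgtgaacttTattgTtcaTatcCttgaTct

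The H2-L probe A_55_P2501876 (chr17:35403191-35403250) and the H2-T23 probe A_51_P237754 (chr17:36167338-36167574) matched at 48 of 54 aligned bases, and the 6 that differed are in capitals.
H2-L: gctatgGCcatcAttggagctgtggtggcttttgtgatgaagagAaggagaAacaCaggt
H2-T23: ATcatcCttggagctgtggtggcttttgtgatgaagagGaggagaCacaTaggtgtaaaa

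The H2-L probe also matched the H2-K1 probe A_55_P2049647 at 41 of 60 bases, and its position ended 635 bases before the H2-D1 probe. The b haplotype of B6 carries no H2-L gene, yet this probe was detected on all 4 B6 arrays, so the values under the name H2-L are given by the file's name only. The sequences of the BTBR/R alleles were not analysed here, and a different level and a different match to the probe cannot be told apart from 1 probe.

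Among the 38 member probes detected on all 8 arrays, 5 were higher in BTBR/R past the test, beside 13.0% of all such probes, and 1 was lower, beside 13.9%. At 2-fold, 1 was called higher, against 1.04% of all such probes, and 1 was called lower, against 1.16%. The share of members that were higher, 5 of 38, was thus close to that of the array at large, and the share that were lower, 1 of 38, was below it. The median change was 0.06 over the members and 0.00 over all 28547 probes. By class, the median was 0.04 for the 21 class I probes, 0.33 for the 6 class II probes and -0.08 for the 9 processing gene probes. Without BTBR/R replicate 3 these medians were -0.18, 0.18 and -0.16.

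The lower call was H2-T22, a non-classical class I gene whose product is recognised by gamma delta T cells. Its scaled signal was -0.08, 0.07, 0.01 and -0.09 in B6 and -1.17, -1.44, -0.87 and -1.29 in BTBR/R. The strains did not overlap, with means of -0.02 ± 0.08 and -1.19 ± 0.24 (SD, n = 4). The change was -1.17 (SE 0.12, 2.25-fold lower, limma adjusted p = 0.000143), and without BTBR/R replicate 3 it was -1.28. With normexp, another background correction, the gene was 1.99-fold lower and still passed the test (adjusted p = 0.000141).

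The H2-T9 probe, 1233 bases away from the H2-T22 probe, gave -2.59, -2.48, -2.59 and -2.61 in B6 and -3.69, -4.14, -3.06 and -3.78 in BTBR/R, where only 1 array detected it. B6 was about 1.91-fold higher by an approximate bound (limma change -1.10, adjusted p = 0.00439, normexp change -0.49). The bound lifts BTBR/R values to the lowest signal detected for any probe on their array. A probe's own limit may be higher, so that the bound is no strict minimum. H2-T10, whose product is closely related to that of H2-T22, gave -2.95, -3.04, -2.77 and -3.29 in B6 and -3.59, -4.72, -3.34 and -4.18 in BTBR/R, where 2 arrays detected it. By the same bound the B6 level was about 1.44-fold higher (limma adjusted p = 0.0412, normexp adjusted p = 0.147). For both genes all B6 values lay above all BTBR/R values. Not every BTBR/R array detected them, so the limma values of both genes follow the detection limit in part and are no measured changes.

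H2-T24, another non-classical gene of the region, was measured by A_55_P2003996 at -3.40 ± 0.10 in B6 (SD, n = 4) and -3.81 ± 0.24 in BTBR/R, where 1 array detected it. By the same bound B6 was about 1.16-fold higher (limma adjusted p = 0.0335), and these H2-T24 values too follow the detection limit in part. Its other probe, A_55_P2003991, was detected on every B6 array and on no BTBR/R array, and no fold is given because the B6 mean of -4.53 lay under the BTBR/R detection limits. H2-T23, which encodes Qa-1, a ligand of inhibitory receptors of natural killer cells, gave 1.76, 2.02, 1.98 and 1.89 in B6 and 1.34, 1.16, 2.16 and 1.18 in BTBR/R with A_51_P237754. The change was -0.45 (SE 0.22, limma adjusted p = 0.152), and BTBR/R replicate 3 alone lay above the B6 values. Without that replicate the H2-T23 change was -0.68 (SE 0.09, adjusted p = 0.00102). Its dimmer probe, A_55_P2724974, was detected on every BTBR/R array but that of replicate 3. There replicate 3 gave -3.74, under the lowest detected signal of its array (-3.61). Whether this probe followed the pattern could thus not be told. The change was -0.29 (adjusted p = 0.0803) with replicate 3 and -0.23 (adjusted p = 0.173) without it.

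H2-Bl, a class I gene of the same interval first named for blastocyst expression, moved the other way. A_55_P2483641 gave -3.56, -3.54, -3.46 and -3.75 in B6 and -0.71, -0.97, -1.08 and -1.37 in BTBR/R. Every BTBR/R value exceeded every B6 value by a wide margin, and replicate 3 was in the middle of its strain. The change was 2.55 (SE 0.14, 5.85-fold higher, limma adjusted p = 2.76e-05), and it was 1.45 with normexp. The other H2-Bl probe, A_55_P1981494, which the files leave without a position, gave -2.30 ± 0.17 in B6 and -1.72 ± 0.38 in BTBR/R (SD, n = 4), a change of 0.58 (SE 0.19, adjusted p = 0.0491). Its strains overlapped, and it no longer passed the test in 12 of the 18 alternative settings, among them leaving out any 1 of the mice but BTBR/R replicate 4 (0.42 to 0.66, adjusted p up to 0.112). The 2 probes of the gene thus gave changes of different size. The look-alike H2-Q10 probe printed above was detected on 1 of 8 arrays, BTBR/R replicate 3 at -2.99.

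**Figure D1:**
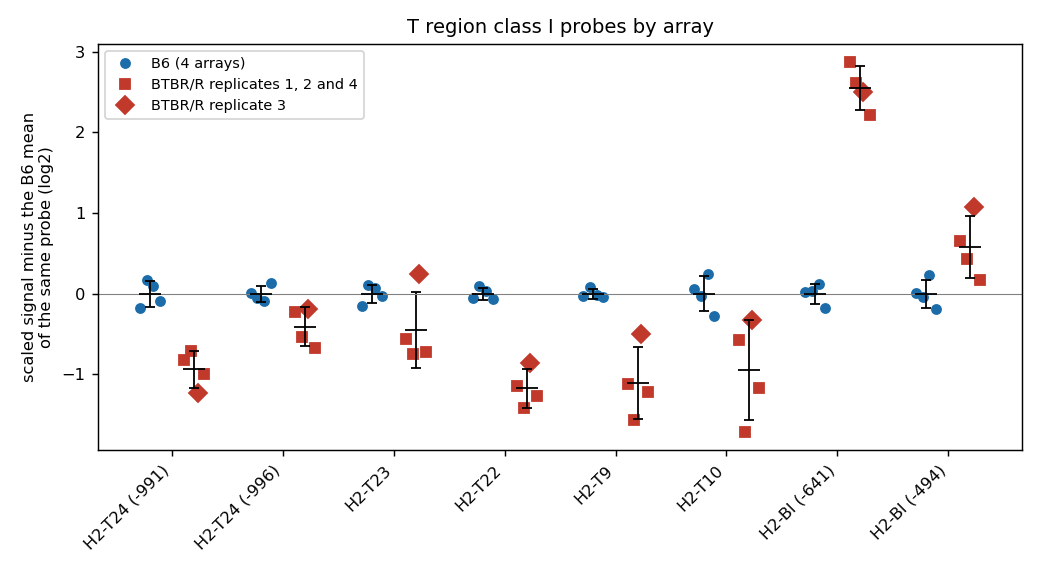
T region class I probes on each array, as scaled signal minus the mean of the 4 B6 arrays for the same probe (log2), with the strain mean and SD as black bars and the last 3 digits of the probe name in brackets. BTBR/R arrays (red) lie under the B6 arrays (blue) for H2-T24, H2-T22, H2-T9 and H2-T10 and above them for H2-Bl A_55_P2483641. For H2-T23 BTBR/R replicate 3 (diamond) is above B6 and the other 3 are under it. Of the genes drawn wholly under B6, only H2-T22 was detected on every BTBR/R array. H2-T24 A_55_P2003991 was detected on no BTBR/R array, so its BTBR/R points are no measured levels.

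H2-T3, a further T region gene, was detected by A_55_P2742103 on every B6 array and 2 BTBR/R arrays. It gave -3.63 ± 0.13 in B6 and -3.73 ± 0.47 in BTBR/R (SD, n = 4). The change of -0.10 did not pass the test (limma adjusted p = 0.77). The 11 placed probes of H2-T genes and H2-Bl covered chr17:36142640-36323966, an interval of 181.3 kb that also held 20 probes of other genes. Of those 20, 5 were detected on all 8 arrays, and 1 of the 5 was lower and 1 higher past the test. Both were named after their values were seen. The lower one, C920025E04Rik A_55_P2741193, gave -0.90 ± 0.12 in B6 and -1.64 ± 0.38 in BTBR/R (SD, n = 4), a change of -0.74 (SE 0.18, 1.67-fold, limma adjusted p = 0.0161) that was -0.92 without BTBR/R replicate 3. Another probe of that gene, A_51_P444565, gave -0.21 (adjusted p = 0.335). The higher one, A930015D03Rik, whose probe lies 552 bases from that of H2-T22 on the opposite strand, gave -2.15 ± 0.14 in B6 and -0.09 ± 0.05 in BTBR/R (SD, n = 4). Its change was 2.06 (SE 0.08, 4.17-fold, limma adjusted p = 5.0e-06), opposite in sign to that of H2-T22. BC030333, chosen in the same way, lies 373 bases from the H2-T24 probe A_55_P2003991. It was detected on all B6 arrays at -1.37 ± 0.10 (SD, n = 4) and on no BTBR/R array. By the approximate bound B6 was about 5.06-fold higher (limma adjusted p = 4.6e-07). Gm8909, a predicted gene of the interval, was detected on all BTBR/R arrays at -1.90 ± 0.11 and on 2 of 4 B6 arrays. BTBR/R was about 8.29-fold higher by the same kind of bound (limma adjusted p = 7.3e-06).

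**Figure D2:**
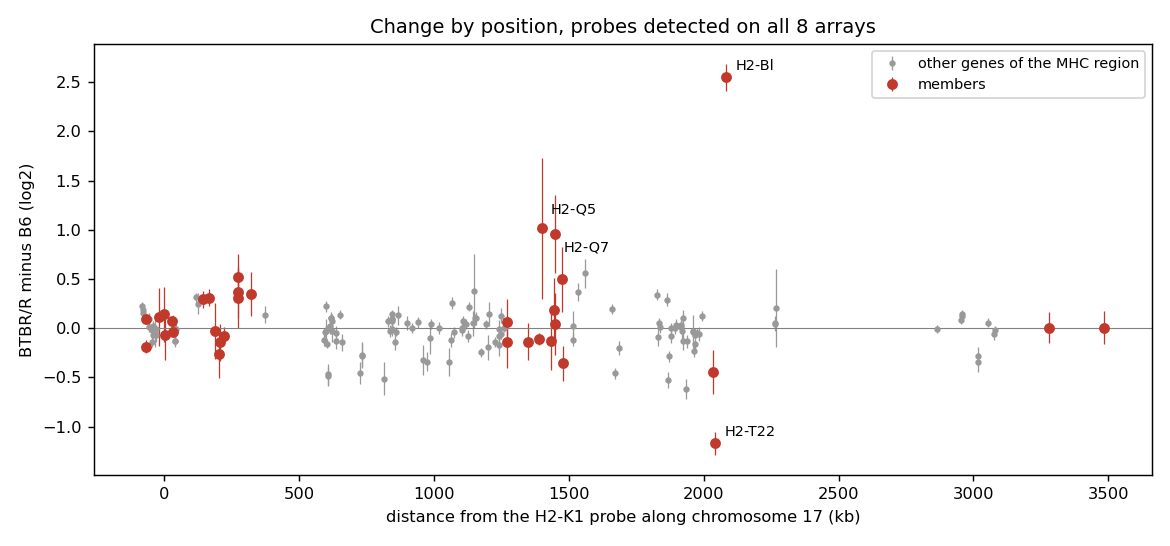
Change between strains (BTBR/R minus B6, log2, bars are the SE) against distance from the H2-K1 probe on chromosome 17 in kb, for members (red) and other genes of the MHC region (grey) detected on all 8 arrays. H2-T22 at -1.17 and H2-Bl at 2.55 lie close together, and H2-Q5 and 1 of the 3 H2-Q7 probes (A_55_P2745710) are near 1 with wide errors.

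Other genes of the MHC region of chromosome 17 were counted for comparison. Of 131 of their probes detected on all 8 arrays, 15 were higher and 14 lower past the test, beside 13.0 and 13.9% of all such probes. Their median change was -0.01. The 3 genes with the largest changes were Ppp1r10, a phosphatase regulatory subunit (-0.62, SE 0.10, limma adjusted p = 0.0025, with 1 of its 4 probes detected on all 8 arrays and -0.13 to 0.11 with the others), Cdsn, which encodes corneodesmosin (0.56, SE 0.15, adjusted p = 0.0192), and Nrm, which encodes the nuclear membrane protein nurim (-0.52, SE 0.08, adjusted p = 0.00166).

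The classical class I genes, H2-K1 and H2-D1, which present peptides to CD8 T cells, showed no change past the test over all 8 mice. H2-K1 probe A_51_P198434 gave 2.18, 2.27, 2.35 and 2.27 in B6 and 2.23, 2.19, 3.30 and 1.90 in BTBR/R. The change was 0.14 (SE 0.28, limma adjusted p = 0.736), and the BTBR/R spread (SD 0.62) was far wider than that of B6 (SD 0.07). H2-D1 gave 1.22, 1.29, 1.42 and 1.25 in B6 and 1.26, 1.10, 2.08 and 0.99 in BTBR/R, a change of 0.06 (SE 0.23, adjusted p = 0.856). In both genes replicate 3 of BTBR/R was the highest of the 8 mice and replicate 4 the lowest.

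The same mouse was highest for all 6 classical class I probes, those named H2-K1, H2-K2, H2-D1 and H2-L. BTBR/R replicate 3 exceeded the mean of the other 3 BTBR/R mice by 0.96 to 1.22 on the log2 scale for these probes. For H2-K1 this was 1.20, or 2.29-fold, with A_51_P198434 and 1.07, or 2.10-fold, with A_55_P2049647. For H2-L A_55_P2501876, B6 gave 1.37, 1.58, 1.59 and 1.51 and BTBR/R gave 1.19, 1.12, 2.20 and 0.96. Each of the other 3 BTBR/R values thus lay below every B6 value, and replicate 3 lay above them all.

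Over the 21 class I probes detected on all 8 arrays, replicate 3 was the highest BTBR/R mouse in 19 and the highest of all mice in 17, with a median departure of 1.01 from the other BTBR/R mice. Over all 28547 probes the same median was 0.01, and 1428 probes lay above the 95th percentile of 0.22, as did 19 of the 21. The medians of the other arrays of either strain, taken the same way over the class I probes, ran from -0.53 (BTBR/R replicate 4) to 0.11 (B6 replicate 3). The array as a whole thus showed no such shift. No test is attached to it, since the mouse was singled out for these values.

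**Figure D3:**
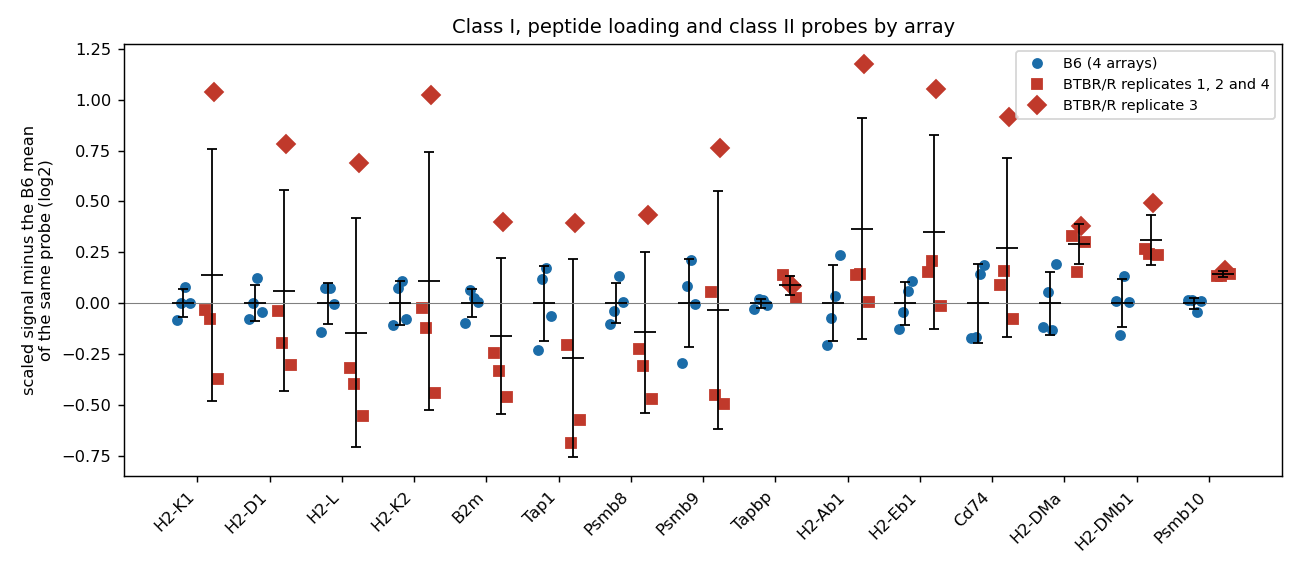
Class I, peptide loading and class II probes on each array, as scaled signal minus the B6 mean of the same probe (log2), with the strain mean and SD as black bars (for genes with several probes, the brightest). BTBR/R replicate 3 (diamond) is above the other arrays from H2-K1 to Psmb9 and from H2-Ab1 to Cd74, while Tapbp and Psmb10 show no such departure.

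The Qa genes, non-classical class I genes of the Q region, included the widest departures. H2-Q5 gave -3.11, -3.20, -3.16 and -3.05 in B6 and -2.49, -2.86, 0.19 and -3.33 in BTBR/R. Replicate 3 was 8.46-fold above the mean of the other BTBR/R mice, the largest such departure of all 28547 probes, and the change of 1.01 (SE 0.72, limma adjusted p = 0.306) did not pass the test. The 3 probes of H2-Q7, a gene of the Qa-2 antigen, gave departures of 1.33 to 1.71, H2-Q8 gave 1.24 and H2-Q10 A_52_P428354 gave 1.39. H2-Q4, whose signal was 7.03 ± 0.04 in B6 and 6.92 ± 0.10 in BTBR/R (SD, n = 4), had a departure of 0.06. That signal was far above those of H2-K1 A_51_P198434 and B2m A_51_P129012 in B6 (2.27 and 3.17). Whether the H2-Q4 probe binds other transcripts was not tested. Among the M region genes the departure was 0.69 for H2-M2 and 0.54 for H2-M3, which presents N-formylated bacterial peptides, and their changes were 0.00 and 0.01.

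The H2-T22 probe, which carried the strain difference, had a departure of 0.43, and H2-Bl A_55_P2483641 had -0.07. The 2 largest calls therefore did not rest on replicate 3.

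Without BTBR/R replicate 3 the counts over the 38 members were different. Since the mouse was singled out for its values in these probes, the counts and adjusted p values without it are descriptive. Then 10 were lower past the test, against 11.9% of all probes detected on all 8 arrays, and 3 were higher, against 10.7%. The median change over the members was -0.14 and over all probes 0.00. Beside H2-T22, the lower probes were H2-T23 (-0.68), H2-Q10 A_55_P1995092 (-0.53, limma adjusted p = 0.00604), Tap1 (-0.49), H2-Q8 (-0.44, adjusted p = 0.0126), H2-L A_55_P2501876 (-0.42, adjusted p = 0.0099), B2m (-0.34), H2-K1 A_55_P2049647 (-0.34, adjusted p = 0.017), H2-Q2 (-0.34, adjusted p = 0.0124) and Psmb8 (-0.33). The higher ones were H2-Bl A_55_P2483641 (2.56), H2-Q7 A_55_P2745710 (0.53, adjusted p = 0.00904) and H2-DMb1 (0.25, adjusted p = 0.0462). The H2-Q7 probes disagreed, since A_55_P1978511 gave -0.29 (adjusted p = 0.0536) in the same fit. The H2-K1 probe A_51_P198434 and H2-D1 did not pass it (-0.16 and -0.18). Leaving out any other single mouse left 1 or 2 member probes lower and 2 to 4 higher, so that the larger count of lower probes depended on which mouse was left out.

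**Figure D4:**
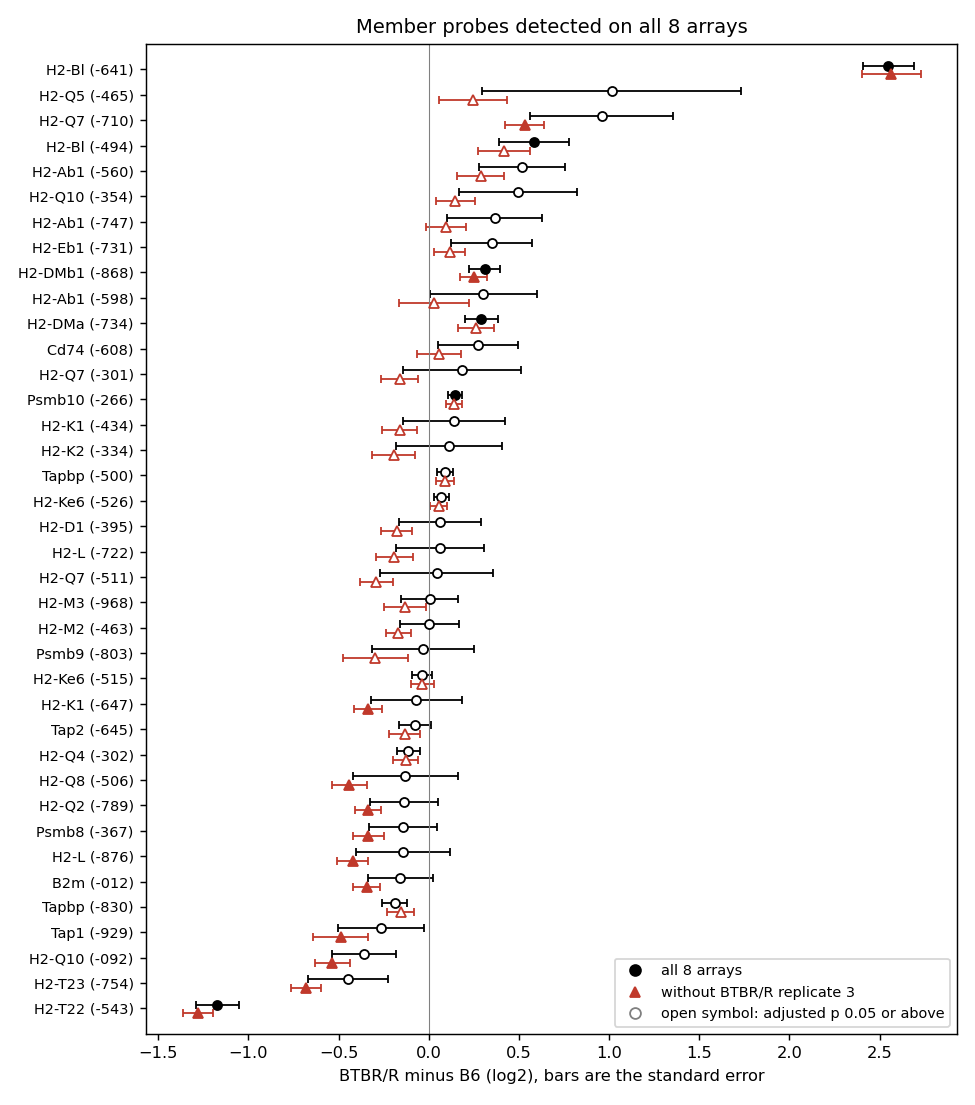
Change between strains (log2, bars are the SE) for the 38 member probes detected on all 8 arrays, with all mice (black circles) and without BTBR/R replicate 3 (red triangles), filled where the adjusted p is below 0.05, and the last 3 digits of the probe name in brackets. With all mice 6 probes are filled, and without replicate 3 there are 13, 10 of them to the left of 0.

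The partners of class I followed it in part. B2m A_51_P129012 gave 3.07, 3.23, 3.20 and 3.18 in B6 and 2.93, 2.84, 3.57 and 2.71 in BTBR/R. Again 3 BTBR/R mice lay below every B6 mouse and replicate 3 above them all, and the change of -0.16 (SE 0.18, limma adjusted p = 0.527) became -0.34 (SE 0.07, adjusted p = 0.0119) without it. The dimmer B2m probe A_52_P105594, not detected on every BTBR/R array, gave -0.48 (adjusted p = 0.0978) and -0.54 (adjusted p = 0.109). Tap1 A_66_P125929 gave -2.67, -2.31, -2.26 and -2.50 in B6 and -2.64, -3.12, -2.04 and -3.01 in BTBR/R (change -0.27, SE 0.24, adjusted p = 0.418). Without replicate 3 its change was -0.49 (adjusted p = 0.0485). Psmb8 gave -1.13, -1.07, -0.90 and -1.02 in B6 and -1.25, -1.33, -0.60 and -1.50 in BTBR/R, with a change of -0.14 (SE 0.19, adjusted p = 0.59) that became -0.33 (adjusted p = 0.025). Psmb9, the other inducible proteasome subunit encoded beside Tap1, gave -0.03 (SE 0.28, adjusted p = 0.943) and -0.30 (adjusted p = 0.249). The departures of replicate 3 were 0.75, 0.88, 0.77 and 1.06 for B2m, Tap1, Psmb8 and Psmb9.

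Tap2, Tapbp and Psmb10 showed little or none of that departure, while that of Cd74, given with class II, was 0.86. Tap2 gave 0.82 ± 0.09 in B6 and 0.74 ± 0.15 in BTBR/R (SD, n = 4), with a departure of 0.22 and a change of -0.08 (SE 0.09, limma adjusted p = 0.527). The 2 Tapbp probes pointed in opposite directions, 0.09 (SE 0.04, adjusted p = 0.153) for A_51_P304500 and -0.19 (SE 0.07, adjusted p = 0.0682) for A_52_P684830, with departures of -0.01 and -0.12. Psmb10, the immunoproteasome subunit encoded outside the MHC on chromosome 8, gave 4.29, 4.29, 4.23 and 4.28 in B6 and 4.41, 4.41, 4.44 and 4.42 in BTBR/R. The strains did not overlap, and the change was 0.14 (SE 0.04, 1.10-fold, adjusted p = 0.0225). It did not pass with scaling to the median (0.12, adjusted p = 0.109), with the replicate number as a block (adjusted p = 0.103), or without B6 replicate 3 (0.13, adjusted p = 0.0629), BTBR/R replicate 3 (0.14, adjusted p = 0.058) or BTBR/R replicate 4 (0.14, adjusted p = 0.0531). The 2 H2-Ke6 probes changed by 0.07 and -0.04, neither past the test.

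Of the class II genes, those of the peptide-exchange factor H2-DM were slightly higher in BTBR/R. H2-DMa gave -0.55, -0.38, -0.57 and -0.25 in B6 and -0.11, -0.29, -0.06 and -0.14 in BTBR/R, a change of 0.29 (SE 0.09, 1.22-fold, limma adjusted p = 0.0379) with 1 BTBR/R value inside the B6 range. H2-DMb1 A_51_P278868 gave -1.50, -1.67, -1.38 and -1.50 in B6 and -1.24, -1.27, -1.02 and -1.28 in BTBR/R, with no overlap and a change of 0.31 (SE 0.09, 1.24-fold, adjusted p = 0.0244). With normexp neither passed the test (adjusted p = 0.0658 for H2-DMa and 0.0663 for H2-DMb1). H2-DMa also did not pass with quantile normalization (adjusted p = 0.0526), scaling to the median (adjusted p = 0.0717) or the replicate number as a block (adjusted p = 0.105). Nor did H2-DMa pass without B6 replicate 1, 2 or 3 or BTBR/R replicate 1, 3 or 4 (0.25 to 0.31, adjusted p up to 0.0929). H2-DMb1 did not pass without B6 replicate 1, 2 or 4 (0.26 to 0.31, adjusted p up to 0.0576).

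The peptide-binding chains showed the departure of replicate 3 and no change past the test. H2-Ab1, the beta chain of the I-A molecule, gave -1.02, -0.88, -0.78 and -0.58 in B6 and -0.68, -0.67, 0.36 and -0.81 in BTBR/R with A_55_P1962747. Replicate 3 alone left the B6 range, and the change was 0.37 (SE 0.26, limma adjusted p = 0.313) with it and 0.10 (adjusted p = 0.55) without it. The overlapping probe A_55_P2146560, identical at 50 of 51 aligned bases, gave 0.52 (adjusted p = 0.126), and A_52_P683598 gave 0.30 (adjusted p = 0.464). The dimmest H2-Ab1 probe, A_55_P2741874, which 3 BTBR/R arrays detected, differed from these, with BTBR/R replicate 2 highest at -0.65 and replicate 3 at -2.42 (change 0.72, adjusted p = 0.421). H2-Eb1, the beta chain of I-E, gave -0.79, -0.70, -0.60 and -0.55 in B6 and -0.50, -0.45, 0.39 and -0.68 in BTBR/R (change 0.35, SE 0.22, adjusted p = 0.261, and 0.12 without replicate 3). Cd74 gave -1.40, -1.39, -1.08 and -1.04 in B6 and -1.14, -1.07, -0.31 and -1.30 in BTBR/R (change 0.27, SE 0.22, adjusted p = 0.372, and 0.06 without replicate 3). H2-Aa was detected on all B6 arrays and on 2 BTBR/R arrays, at -3.74, -3.81, -3.40 and -3.30 in B6 and -3.74, -4.01, -2.45 and -3.82 in BTBR/R. Replicate 3 was the highest of the 8 mice for H2-Aa, H2-Eb1, Cd74 and the other 3 H2-Ab1 probes. For those detected on all 8 arrays, which leaves out H2-Aa, it lay 0.86 to 1.09 above the mean of the other BTBR/R mice.

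The remaining members were near or below the detection limit. Of the 90 probes, 38 had signal above background in all 8 mice, 10 on every B6 and some BTBR/R arrays, 5 on every B6 and no BTBR/R array, 10 on some arrays of neither full strain and 27 on no array. The 27 held 12 probes of H2-M genes, with most of the H2-M10 family, 3 of H2-T3 and H2-T18, and also H2-DMb2 and the pseudogene H2-Ea-ps. Over all 90 probes, with those not detected included, 22 would count as called higher, 20 of them among these 27, and 2 as called lower, beside 20.2 and 2.27% of all 56605 probes. For such probes the scanner software reports a floor that differs between the strains, and neither a level nor a fold is given. Nlrc5 A_55_P2016034 was detected on every B6 and no BTBR/R array, Ciita A_55_P2736700 on every B6 and 1 BTBR/R array, and H2-Oa on every B6 and no BTBR/R array. H2-Ob and Erap1 were detected on 3 and 2 B6 arrays with their brightest probes and on no BTBR/R array. For these activators and modulators, whether levels differed could not be told at this signal. H2-Q1 was detected on every B6 and no BTBR/R array, and whether its level differed could not be told either. Its bound of 1.06-fold and its limma adjusted p (0.026, and 0.0503 without BTBR/R replicate 3) rest on BTBR/R values that were not detected.

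Promoter windows with a match to a motif are shown for H2-K1, H2-D1, H2-Q7 and B2m, which shared the departure of replicate 3, for H2-Q4, which did not, and for H2-T22. Of the 53 genes, 37 had 1 or more of their start sites in RefSeq's table for GRCm38.p6, 40 sites in all, and the 250 bases before each start were searched on both strands for GAAANNGAAA, the core of an interferon-stimulated response element, and for GAANNGAAA, its shorter form in class I promoters. The first was found before 3 of the 40 sites (7.5%) and 2.98% of 32851 promoters, and the second before 8 (20%) and 6.31%. The 8 count H2-K1 at 2 start sites that share 1 match, so that 7 genes held the shorter form, and no member promoter held both forms. Each line gives 70 bases around the match, in the direction of the gene, with the match in capitals.
H2-K1: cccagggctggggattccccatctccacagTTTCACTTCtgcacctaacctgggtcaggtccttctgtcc
H2-D1: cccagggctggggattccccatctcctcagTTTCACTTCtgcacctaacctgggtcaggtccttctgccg
H2-Q7: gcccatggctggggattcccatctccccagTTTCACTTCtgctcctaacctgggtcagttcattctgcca
H2-Q4: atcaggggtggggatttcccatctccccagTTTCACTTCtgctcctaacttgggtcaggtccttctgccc
H2-T22: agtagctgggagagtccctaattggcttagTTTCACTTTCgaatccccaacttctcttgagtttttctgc
B2m: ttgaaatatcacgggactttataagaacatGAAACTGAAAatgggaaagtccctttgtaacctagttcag

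These windows lie at chr17:34000398-34000467 (H2-K1), chr17:35262914-35262983 (H2-D1), chr17:35439012-35439081 (H2-Q7), chr17:35379434-35379503 (H2-Q4), chr17:36042894-36042963 (H2-T22) and chr2:122147518-122147587 (B2m) of GRCm38.p6, with H2-K1 and H2-T22 on the minus strand. H2-Q4, with a departure of 0.06 from a probe that may bind other transcripts, held the same 9 letters as H2-K1, with 1.20. The match is a description of the letters in the reference and not a site shown to be used.

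Other genes of the pathway were examined by list. Their counts stand beside 13.0% higher and 13.9% lower past the test among all probes detected on all 8 arrays. Of 36 probes of other antigen presentation genes detected on all 8 arrays, such as cathepsins, chaperones and class I-like genes, 5 were higher and 2 lower past the test, with a median change of 0.02 and a median departure of replicate 3 of 0.00. Over these probes the largest changes were in Hfe, a class I-like regulator of iron uptake (A_55_P2056070, 0.73, SE 0.07, limma adjusted p = 8.5e-05), Ifi30, the lysosomal thiol reductase GILT (0.64, SE 0.13, adjusted p = 0.0055), and Ctss, the protease that removes the invariant chain (-0.54, SE 0.07, adjusted p = 0.000513). The Hfe probes disagreed, since A_52_P193022 was detected on every B6 array, at a mean of -3.91, and on no BTBR/R array. Of 48 probes of regulators of MHC transcription and interferon gamma signalling, 8 were higher and 4 lower, with a median change of 0.07 and a departure of 0.02. Irf9, a transcription factor of the type I interferon response, changed by 1.07 (SE 0.08, adjusted p = 2.8e-05) with A_51_P127367 and by 0.14 (adjusted p = 0.208) with A_55_P2114938. Irf2 changed by 0.67 (SE 0.16, adjusted p = 0.0139) with A_55_P2737089 and by 0.16 (adjusted p = 0.121) with A_51_P316523.

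Interferon-induced genes other than members were mostly lower in BTBR/R. Of 33 probes detected on all 8 arrays, 1 was higher and 19 were lower past the test, beside the 13.0 and 13.9% of all such probes, with a median change of -0.28, and without BTBR/R replicate 3 the counts were 1 and 21. The largest changes were in the immunity-related GTPase genes Irgm2 (-1.59, SE 0.18, limma adjusted p = 0.000225) and Igtp (-1.0, SE 0.16, adjusted p = 0.00215) and in Bst2, which encodes the virus-tethering protein tetherin (-1.10, SE 0.11, adjusted p = 0.000133). In these genes replicate 3 exceeded the other BTBR/R mice by a median of 0.26, above the array-wide 95th percentile in 18 of 33 probes, with 1.14 for Mx2, 0.85 for Gbp2 and 0.02 for Bst2. Replicate 3 was thus high among BTBR/R mice for many of these genes too, but their median lay below B6 with and without it.

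Marker lists of cell types that could carry MHC transcripts are given beside these values. For their counts, the shares past the test among all probes detected on all 8 arrays were 13.0% higher and 13.9% lower. Of 20 microglia probes, 3 were higher and 9 lower past the test, with a median change of -0.12. Their summed linear level was 272.4 to 294.8 in B6 and 256.7 to 273.3 in BTBR/R, with 273.3 in replicate 3. The median departure of replicate 3 was 0.01. The largest change was in Cx3cr1, whose 2 probes went opposite ways (1.71 and -0.71), and C1qb changed by -1.42. Endothelial markers (13 probes, 1 higher, 5 lower) summed to 45.5 to 53.2 in B6 and 40.8 to 44.5 in BTBR/R, with 44.5 in replicate 3 and a departure of 0.02. Lymphocyte markers were detected on all 8 arrays by 3 of 22 probes. Their sums were 2.82 to 2.92 in B6 and 2.85 to 3.54 in BTBR/R, with 2.86 in replicate 3 and a departure of -0.11. No probe of the T cell gene Cd8a or the B cell gene Cd79a was detected on any array. Dendritic cell markers were detected on all 8 arrays by 2 of 16 probes (departure -0.09), border macrophage markers by 4 of 8 (0.05) and neutrophil and monocyte markers by 3 of 7 (-0.35).

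Red blood cell markers summed to 173.7 to 554.4 in B6 and 120.0 to 147.7 in BTBR/R, with 130.4 in replicate 3 and a departure of 0.00. Of their 6 probes, 5 were lower past the test, with a median change of -1.18. Without BTBR/R replicate 3 none passed, though the median change was still -1.18. Choroid plexus markers (8 probes, none past the test) ranged from 2.85 to 43.2 in B6 and from 6.46 to 26.8 in BTBR/R, with 22.95 in replicate 3 and a median departure of 0.41. The part of these cell types in the strain differences and in the departure of replicate 3 was not tested.

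**Figure D5:**
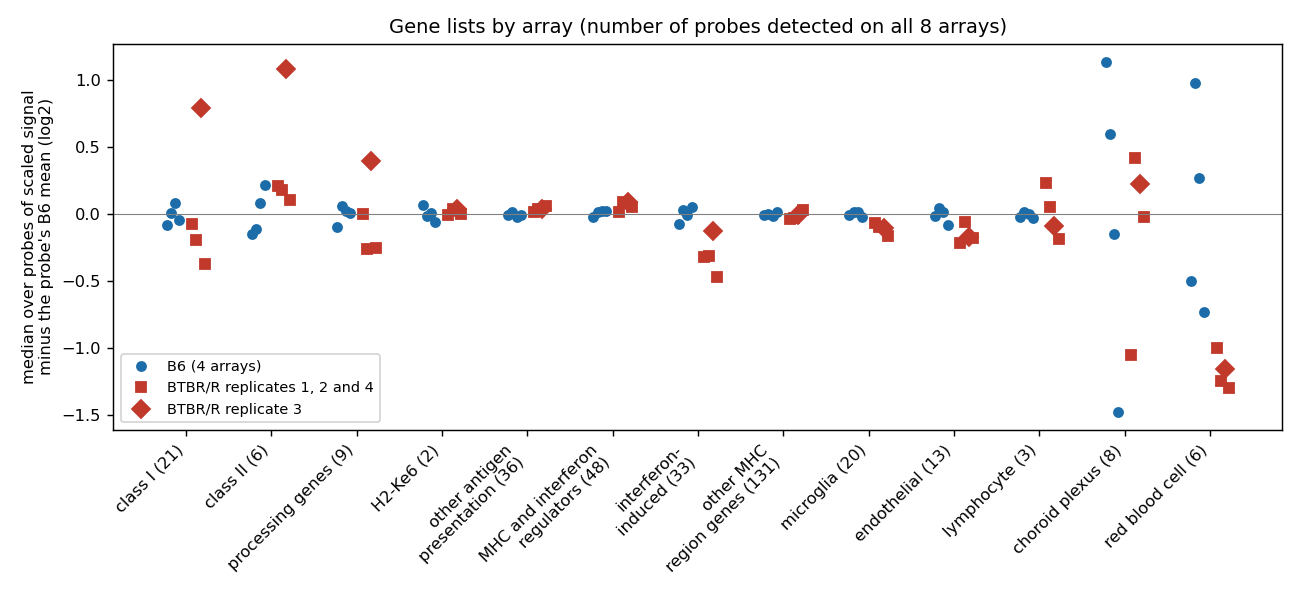
Median over the probes of each list of scaled signal minus the B6 mean of the probe (log2), 1 point per array, with the number of probes detected on all 8 arrays in brackets. BTBR/R replicate 3 (diamond) stands at 0.80 for class I, 1.09 for class II and 0.39 for processing genes, above the other arrays, and among the other BTBR/R arrays for microglia, endothelial, lymphocyte and red blood cell markers.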

How the data were processed

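RNA from the dissected forebrain tissue of 4 B6 and 4 BTBR/R mice was measured on 1-colour Agilent SurePrint G3 Mouse arrays. The authors selected RNA of high integrity, scanned the arrays and extracted signals with Feature Extraction 10.7.3.1, and the deposited scanner files hold the processed signal of each spot as an intensity on a linear scale, with flags for control, outlier, saturated and well-above-background spots. The authors also deposited log2 values, which differed from log2 of the processed signal by 1 constant for each array (within 0.01 for 99.972 to 99.989% of probes) and were used only as an alternative.

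Control spots and outlier flags were left out, spots of a probe were averaged, and log2 signals were scaled to the 75th percentile of each array. limma 3.58.1 in R 4.3.3 (lmFit, eBayes) was fitted to all 56605 probes without covariates. Scripts were tested on simulated data. No member probe was saturated or replicated on the array. Of 79 member probes with a RefSeq accession, 69 were found in the GRCm38.p6 gene table, all under the same symbol. The number of arrays limits the precision, and nothing says more of the replicates than that they are separate mice.

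The members, gene lists and tests were chosen with earlier results of these data known. Named probes were those called at 2-fold and detected on every array of a strain, up to 12 others with the largest change past the test, the brightest probe of each of 25 chosen genes, and up to 3 genes per list. A gene that the rule names in the list of regulators is not reported here. A fold bound set the brighter strain's mean against a floor for the dimmer one, which averaged, array by array, the larger of the probe's own value and the lowest detected signal. That signal was the lowest of any probe on the array, so that the bound is approximate. Alternatives were normexp background correction (offset 50), quantile and other scalings, the deposited log2 values, detection filters, the t-test of the methods, limma with trend and robust settings, the replicate number as a block and leaving out each mouse.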

Additional observations from a re-analysis of the deposited data

Results flagged for a closer look

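Among the named probes, 45 groups of 4 arrays were examined for 1 array far from the others of its strain (a gap to the nearest of them beyond Dixon's 95% critical value), and 3 were found, where chance gives about 1 in 20 groups. H2-Ab1 A_55_P1962747 was 0.36 in BTBR/R replicate 3 against -0.81 to -0.67 in the other BTBR/R mice. H2-DMb1 was -1.02 in the same mouse against -1.28 to -1.24. Psmb10 was 4.23 in B6 replicate 3 against 4.28 to 4.29 in the other B6 mice.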

How the results depend on the processing

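The member counts depended on the setting. The count of 5 probes higher past the test was 3 with normexp, 3 with quantile normalization, 2 with median scaling and 3 with the replicate block. The count of 1 lower was 2 with quantile normalization and 2 with median scaling, and the 1 called lower at 2-fold was 0 with normexp. Leaving out 1 mouse gave 2 to 4 higher and 1 to 10 lower past the test, with 10 lower without BTBR/R replicate 3, and 1 called in each direction throughout. Without 1 mouse the medians were -0.18 to 0.18 for class I, 0.18 to 0.45 for class II and -0.16 to -0.016 for processing genes. H2-Bl A_55_P2483641, H2-T22 and H2-T9 passed the test in every alternative that could be fitted. Only 1 BTBR/R array detected H2-T9, so that its values there follow the detection limit in part. The cause of the shifts between settings was not tested.

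Some changes near 0 changed sign. H2-M3 was -0.024 with normexp, -0.021 with quantile normalization, -0.022 with median scaling and -0.0063 when scaled on detected probes. H2-Oa was 0.090 and Psmb9 0.042 with normexp. Leaving out 1 mouse, H2-K1 A_51_P198434 ranged from -0.16 to 0.31, H2-D1 from -0.18 to 0.18, H2-M3 from -0.13 to 0.10, H2-Aa from -0.30 to 0.22, Psmb9 from -0.30 to 0.12, Nlrc5 from -0.086 to 0.31 and Ciita from -0.16 to 0.28, with none of these probes past the test. H2-Oa and Nlrc5 were detected on no BTBR/R array, Ciita on 1 and H2-Aa on 2, so that their values follow the detection limit and are no measured changes.

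The replicate numbers did not pair the mice (correlations of -0.07 to 0.16 between same-numbered mice). Over the 25 probes for which the block was computed, H2-DMa (limma adjusted p = 0.105) and Psmb10 (adjusted p = 0.103) no longer passed the test with it. BTBR/R arrays had a detection limit above that of B6, which limits what can be said of dim members.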
